A study of Mus musculus with 4 samples.

Results

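The genes described are the expressed zinc-finger genes of intestinal Treg cells whose mouse symbol is *Zfp* followed by digits alone. They were chosen by their level, as the genes with such a symbol, other than *Zfp36*, and a mean FPKM of at least 5 over the 4 deposited libraries. The table listed 53379 genes, of which 374 had such a symbol and 115 reached this level, and the other 259 lay below it. The values that selected the genes were the means over both genotypes, which a gene that is low in 1 group can reach through the other. Just inside the threshold were *Zfp346*, with a mean FPKM of 5.09, and *Zfp362*, with 5.11, and just outside it were *Zfp369*, with 5.00, and *Zfp687*, with 4.99.

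Most of these genes encode C2H2 zinc-finger proteins, in which each finger folds around a zinc ion and an array of fingers binds DNA in a sequence-dependent way. The largest subfamily carries a KRAB box, which recruits the corepressor Trim28 and, through it, the H3K9 methyltransferase Setdb1, and is known for silencing retroelements and for keeping imprints. KRAB zinc-finger genes lie in tandem clusters that arose by duplication, and their transcribed bodies are known to carry H3K36me3 together with H3K9me3. Setd2 is the enzyme that writes H3K36me3 along transcribed genes.

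RNA was sequenced from the CD3+CD4+YFP+ cells, taken as Treg cells, of the large intestine (LI) of C57BL/6 mice at steady state, with 2 libraries from control mice and 2 from KO mice. Control mice were *Foxp3*Cre-YFP *Setd2* f/+, with 1 floxed and 1 intact copy of *Setd2*, and KO mice were *Foxp3*Cre-YFP *Setd2* f/f, so that both groups carried the Cre-YFP driven by *Foxp3* and only cells that had expressed *Foxp3* were targeted. Each library was a pool of 2 to 3 littermates, and the methods state an age of 6 to 12 weeks for the mice unless otherwise given. Whether the loss of Setd2 in Treg cells was accompanied by a shift of the zinc-finger repertoire was examined by comparing the KO with the control libraries.

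The libraries are called control and KO by their labels alone, where the titles read WT and KO and the genotypes are those above. In mice of these genotypes the study reports loss of Setd2 protein from splenic KO Treg cells by flow cytometry. It also reports a strong reduction of H3K36me3 in KO Treg cells of spleen and intestine by western blot. *Setd2* itself had an FPKM of 38.19 and 27.36 in the control libraries and 26.33 and 36.30 in the KO libraries, and these gene-level values are not split by exon, so that they do not check the deletion. The Treg genes *Il2ra*, *Ctla4* and *Ikzf2* were at 84.12 FPKM or more in every library, whereas *Foxp3* was listed at only 2.62 to 5.61. *Ctla4* was called higher in KO (1593.26 and 1700.67 against 2159.97 and 2310.35) and *Ikzf2* lower (120.75 and 115.57 against 84.12 and 98.36). The summed level of the 6 Treg genes was 2212 to 2409 in control and 2756 to 2867 in KO, most of it *Ctla4*. *Il2ra* went the other way, with 183.66 and 180.37 in control and 152.14 and 162.77 in KO, and was not called. *Cd4* and *Cd3e* were not called either, with log2 fold changes of -0.29 and 0.00025, and *Foxp3* was not tested. Among 5 epithelial markers, *Epcam* was called lower in KO (28.65 and 30.81 against 19.58 and 21.13), the other 4 were at or below 1 FPKM in every library, and the summed level was 29.0 to 30.9 in control and 20.3 to 21.4 in KO. RNA of other cells was present in both groups. The 6 B and plasma cell markers summed to 884 to 1346 FPKM in control and 1066 to 1231 in KO, most of it *Igkc* (752.94 to 1171.45) and *Jchain* (111.97 to 168.57). The 5 myeloid markers summed to 166 to 187 in control and 161 to 211 in KO, most of it *Lyz2* (127.83 to 167.97). Limma called 0 of the 2 B and plasma cell markers and 0 of the 4 myeloid markers tested at an unadjusted p below 0.05, and no CD8 T or NK marker reached the level for testing. The part of these other cells in the values given here was not tested. FPKM is set per length of transcript and per library, so it can be compared between genes, but the depth of the libraries is unknown and counting error cannot be given. In such bulk samples, fewer cells of a type and less RNA per cell cannot be told apart.

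Expression of the zinc-finger genes was low to moderate. Their median FPKM was 11.5, against 23.0 over all genes tested. *Zfp706*, which encodes a short protein in which 1 finger was found, was the highest, with an FPKM of 223.66 and 197.76 in control and 211.97 and 205.47 in KO. *Zfp207*, known as BuGZ, a spindle protein that binds Bub3, followed with 130.21 and 116.16 in control and 137.01 and 138.36 in KO. These leading genes differed little between genotypes, and neither was called. Behind them stood *Zfp53*, described below, then *Zfp622* with 84.23 and 71.69 against 72.18 and 69.60, *Zfp655* with 75.85 and 72.23 against 77.46 and 70.43, and *Zfp263* with 79.88 and 61.51 against 66.97 and 71.71. The control and KO libraries overlapped in each of these 3, so that they do not differ between genotypes beyond their spread.

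To ask which of the genes differed between genotypes, limma was fitted to log2(FPKM + 1) over the 7639 protein-coding genes whose mean FPKM exceeded 5 in control or in KO. Of the 115 zinc-finger genes, 114 were tested, and the pseudogene *Zfp125* was not. A gene is called here at an unadjusted p below 0.05, the criterion of the study. *Zfp954*, *Zfp61* and *Zfp667* led the genes that were lower in KO, and *Zfp54*, *Zfp53* and *Zfp429* those that were higher. In KO, 9 of the 114 genes (7.89%) were called higher, beside 8.61% of all genes tested, and 8 genes (7.02%) were called lower, beside 7.57% of all genes tested, so the share called was close to the background in both directions. After Benjamini-Hochberg adjustment over all genes 0 of the 114 passed 0.05 in limma, beside 0.589% of all genes tested, with 17 at an unadjusted p below 0.05, and the smallest adjusted p was 0.072, of *Zfp954*. The median log2 fold change was 0.0088 over the 114 genes and -0.0039 over all genes, and 59 of the 114 values were above 0. Both KO libraries lay above both control libraries in 24 of the genes (21.1%), beside 24.2% of all genes tested, and below both in 26 (22.8%), beside 22.9% of all genes tested.

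The differences between genotypes were set beside those within them. Over the 114 genes, the median absolute difference was 0.23 on the log2 scale between the 2 control libraries, 0.22 between the 2 KO libraries and 0.17 between the genotype means. Means of 2 libraries vary less than single libraries, so the last value is not a like measure. The difference between genotypes exceeded both within-group differences in 38 genes (33.3%), and in 35.3% of all genes tested. Of the 17 called genes, 3 kept an unadjusted p below 0.05 under all 14 alternatives tried, namely *Zfp954*, *Zfp61* and *Zfp667*, and the direction of none of the 17 turned. In all 17 both KO libraries lay on the same side of both control libraries, so leaving out 1 library could not turn a direction. The counts changed when single libraries were left out. Such fits are less precise, so a call can be lost in them while the estimate stays. The share of all genes tested that was called also fell in both directions without control 2, without KO 1 and without KO 2. Genes called higher numbered 8 without control 1, 3 without control 2, 2 without KO 1 and 2 without KO 2, and those called lower numbered 6, 9, 4 and 3 in the same order. Of the 17 genes, 8 were no longer called without control 1, 9 without control 2, 11 without KO 1 and 12 without KO 2. For 1 gene in 2 against 2 libraries the smallest p of an exact permutation is 0.333, so each p here depends on limma's pooling of the variance over genes.

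**Figure D1:**
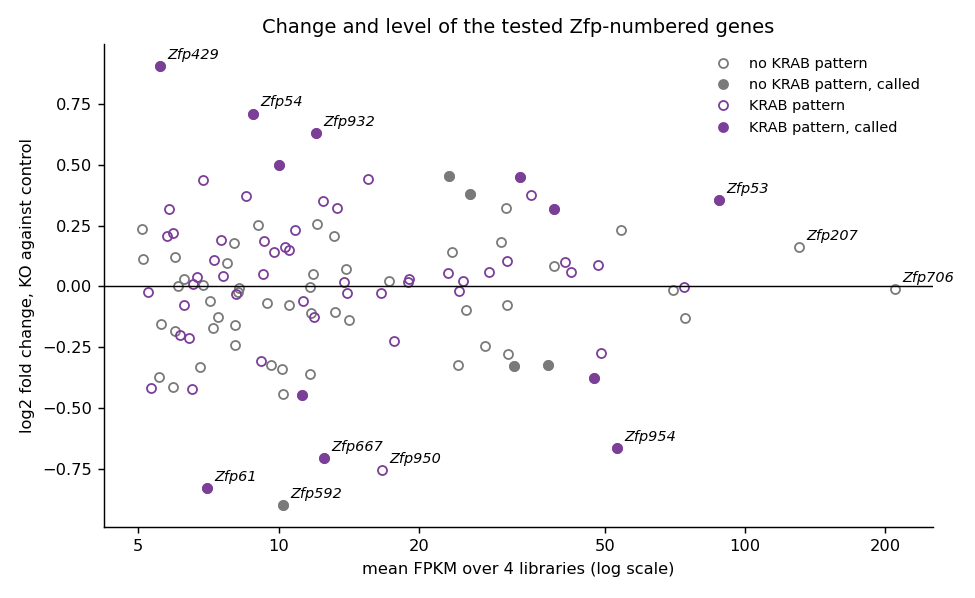
Log2 fold change of each of the 114 tested zinc-finger genes (y axis, KO against control on the log2(FPKM + 1) scale) by its mean FPKM over the 4 libraries (x axis, log scale). Purple circles are genes with a KRAB box and grey ones those without, and filled circles are the 17 genes called at an unadjusted p below 0.05, which lie both above and below 0.

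Among the genes called lower, *Zfp954*, a KRAB gene, was the most highly expressed, with an FPKM of 67.49 and 63.40 in control and 41.82 and 40.13 in KO. The groups were well separated, and its mean in KO was 0.626 times that in control (log2 fold change -0.66, SE 0.12, unadjusted p = 0.00078). *Zfp61*, also a KRAB gene, had 9.79 and 8.71 in control and 4.84 and 4.70 in KO. *Zfp667*, again with a KRAB box, had 16.91 and 14.55 in control and 9.46 and 9.04 in KO. Both were lower in each KO library than in any control library, with log2 fold changes of -0.83 (SE 0.20) and -0.70 (SE 0.17). Their adjusted p by limma and the Benjamini-Hochberg method was 0.119 for each.

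*Zfp592*, which encodes a partner of Zmynd8 and Zfp687 in a chromatin complex and has no KRAB box, stood at 13.12 and 13.75 in control and at 9.02 and 5.01 in KO, the largest negative estimate among the called genes (log2 fold change -0.90, SE 0.26), and it was not called without KO 2, when the log2 fold change was -0.53. *Zfp869* had 58.89 and 48.93 in control and 41.94 and 40.39 in KO. The difference in each was larger than the spread within the groups, though the KO libraries of *Zfp592* and the control libraries of *Zfp869* lay apart. *Zfp281*, a transcription factor that binds GC-rich promoters, had 36.01 and 35.25 against 28.56 and 27.82. *Zfp26* had 11.84 and 14.41 against 9.48 and 9.21. *Zfp62*, with 25 fingers, had 43.05 and 41.26 against 31.12 and 36.01. In these last 3 genes the log2 fold changes were small, at -0.33, -0.44 and -0.32. With 1 library left out, *Zfp281* and *Zfp62* were called in none of the 4 fits, with values between -0.35 and -0.31 and between -0.43 and -0.22. *Zfp869* was called only without control 2 (-0.51) and had -0.24 without control 1, and *Zfp26* was called only without control 1 (-0.58) and had -0.31 without control 2.

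Among the genes called higher, *Zfp429* had the largest estimate, with an FPKM of 2.80 and 4.25 in control and 9.57 and 5.61 in KO (log2 fold change 0.90, SE 0.30). Its transcript matches that of *Rsl1*, a KRAB gene known for repressing male-specific liver genes, at 93.4% identity over 83.4% of its length, so that the division of reads between them is uncertain. *Zfp932* is uncertain in the same way, with 7.54 and 11.09 in control and 16.04 and 13.51 in KO and a match to *Gm15446* at 97.4% identity over 70.2% of its length. *Zfp949* had no such copy and the closest replicates, with 8.20 and 8.08 in control and 12.03 and 11.80 in KO (log2 fold change 0.50, SE 0.17). *Zfp414* had 21.87 and 17.02 against 27.38 and 26.24. *Zfp639* had 21.98 and 22.48 against 27.66 and 30.93. Neither carries a KRAB box, and both were higher in each KO library than in any control library. Several calls were lost when single libraries were left out, in some genes with little change of the estimate. *Zfp429* was not called without control 1 (0.67) or without KO 1 (0.57), nor *Zfp932* without control 1 (0.38) or KO 1 (0.51). *Zfp949* and *Zfp639* were called in none of the 4 fits that left out a library, with values between 0.49 and 0.51 and between 0.30 and 0.46, and *Zfp414* was called only without control 1 (0.63) and had 0.28 without control 2. The other 4 genes called higher, *Zfp54*, *Zfp53*, *Zfp52* and *Zfp948*, are neighbours on chromosome 17.

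**Figure D2:**
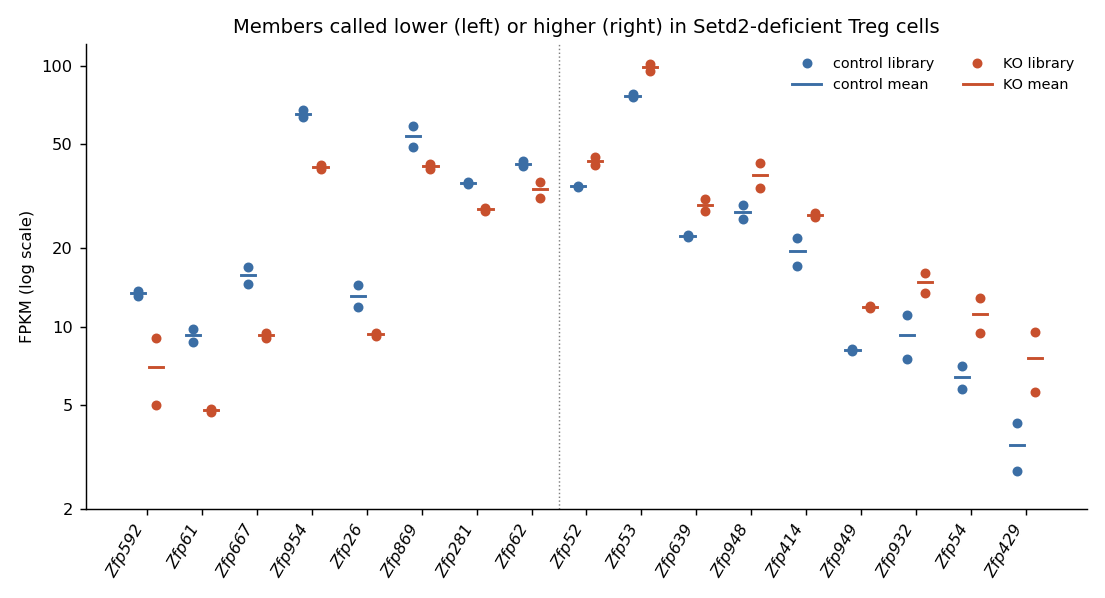
FPKM (log scale) of the 17 called zinc-finger genes, with the 8 called lower in KO to the left of the dotted line and the 9 called higher to the right. Points are libraries, blue for control and red for KO, and bars are group means. In every gene both KO libraries lie on the same side of both control libraries.

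The filter on level bore on a few of these genes. Of the 115, 3 had a control mean of at most 5 and 4 a KO mean of at most 5, and such genes entered only through the group in which they were higher. *Zfp429*, with a control mean of 3.52 ± 1.03 (SD, n = 2), and *Zfp61*, with a KO mean of 4.77 ± 0.10 (SD, n = 2), were among them. A further 9 genes with a *Zfp* number lay below a mean FPKM of 5 and were tested through 1 group, and of these *Zfp369* was called lower and *Zfp983* higher. One gene of the 115 was set by a single library, *Zfp950*, with an FPKM of 41.04 in control 1 and 6.36 in control 2, while the KO libraries had 7.99 and 11.13. It was not called (log2 fold change -0.75, SE 0.68), but with control 2 left out the value was -2.01 at an adjusted p of 0.0076 by limma, the sole zinc-finger gene to pass in that fit.

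A KRAB box was found by its sequence pattern in 59 of the 114 proteins. The KRAB genes had a median of 11 fingers, between 2 and 23, and the other 55 a median of 5, between 0 and 36, while the median FPKM was 11.3 and 11.7. Of the KRAB genes, 7 were called higher and 5 lower (20.3% called), their median log2 fold change was 0.05, and 37 of 59 values were above 0. Of the genes without a KRAB box, 2 were called higher and 3 lower (9.09% called), with a median of -0.06, and 22 of 55 values were above 0. Over all genes tested, 16.2% were called and the median was -0.0039. When the 6 neighbours on chromosome 17 were set aside, the remaining 53 KRAB genes held 3 called higher and 5 called lower (15.1% called). Their median log2 fold change was 0.03. Beyond the numbered symbols, 20 further KRAB genes with fingers were tested, of which 2 were called higher and 3 lower (25% called). By limma with Benjamini-Hochberg adjustment 1 of these 20 passed 0.05, at an adjusted p of 0.00035. The lowest log2 fold change among them was -4.34, beyond that of any numbered gene.

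By the number of fingers, in the 47 genes with at least 10 fingers, 7 were called higher (14.9%) and 4 lower (8.51%), beside 8.61% and 7.57% of all genes tested, and 31 values were above 0. Without the 6 neighbours on chromosome 17, these were 3 (7.32%) and 4 (9.76%) of 41, with 25 values above 0. In the 67 genes with fewer fingers, 2 were called higher (2.99%) and 4 lower (5.97%), and 28 values were above 0. A SCAN box, a dimerization domain, was found by its sequence pattern in 4 genes, *Zfp24*, *Zfp110*, *Zfp397* and *Zfp263*. Of these, 0 were called by limma at an unadjusted p below 0.05. By level, 3 of 47 genes below a mean FPKM of 10 were called (6.38%), beside 11.97% of all genes tested at that level. Between 10 and 30 there were 7 of 44 (15.9%), beside 14.4%, and at 30 or more 7 of 23 (30.4%), beside 19.99%.

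**Figure D3:**
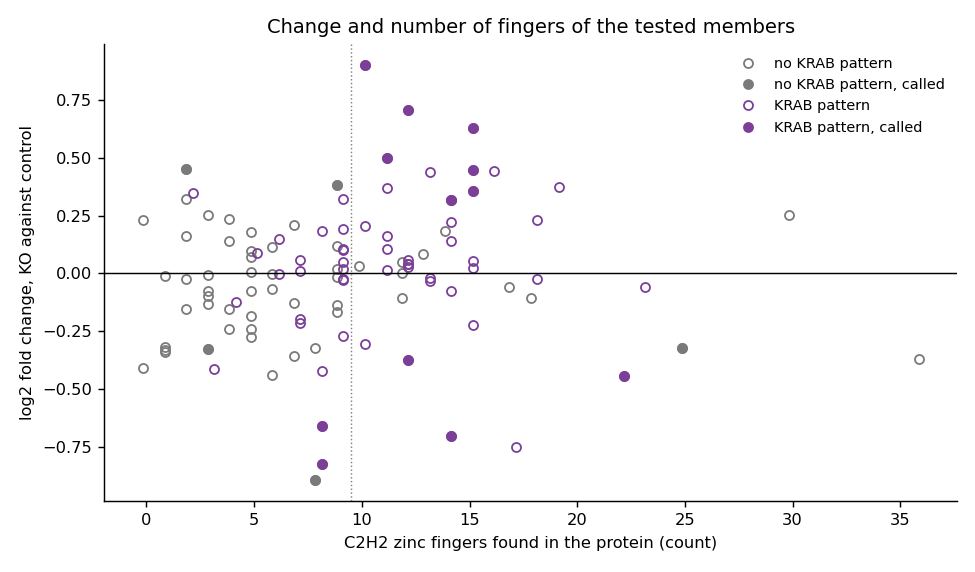
Log2 fold change (y axis, KO against control) by the number of C2H2 fingers found in the protein (x axis) for the 114 tested genes, purple with and grey without a KRAB box, shifted slightly sideways, and filled when called. To the right of the dotted line are the 47 genes with at least 10 fingers, of which 7 were called higher and 4 lower.

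By position, the members lay on 19 chromosomes, with 21 on chromosome 7, 15 on chromosome 17 and 10 on chromosome 8. On chromosome 17, limma called 5 of the 15 higher (33.3%) and 0 lower at this unadjusted p, and 14 values were above 0. Of all 379 genes tested on that chromosome 7.65% were called higher and 7.92% lower. On chromosome 7, 0 of the 21 were called higher and 4 lower, namely *Zfp954*, *Zfp61*, *Zfp667* and *Zfp592* (19.0%), and 8 values were above 0. Of all 546 genes tested there 11.7% were called higher and 6.78% lower. Of 28 pairs of consecutive tested members whose starts lay within 200 kb, 21 (75.0%) had the same sign, beside 53.8% of 5366 such pairs over all genes tested, and without the pairs inside the chromosome 17 run 16 of 23 (69.6%) did. Pairs share genes and are not independent, and these shares are given as a description.

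The run on chromosome 17 consisted of *Zfp677*, *Zfp54*, *Zfp51*, *Zfp53*, *Zfp52* and *Zfp948*, which follow each other on the plus strand from 21383748 to 21588699 of GRCm38, a span of 205 kb. All 6 carry a KRAB box and between 12 and 19 fingers, and each had both KO libraries above both control libraries. This run was chosen after its values were seen. *Zfp677*, at its start, had an FPKM of 15.35 and 10.76 in control and 15.65 and 20.32 in KO. *Zfp54*, 39.5 kb on, had 7.09 and 5.75 in control and 9.48 and 12.92 in KO. *Zfp51* had 34.77 and 25.66 in control and 36.15 and 42.24 in KO. The levels of the neighbours differed several-fold, yet the direction was shared. *Zfp53*, the third highest of the 115 genes, had 78.13 and 75.63 in control and 95.94 and 101.37 in KO. *Zfp52* had 34.61 and 34.45 in control and 41.71 and 44.84 in KO. *Zfp948*, at the end of the run, had 29.22 and 25.91 in control and 33.88 and 42.37 in KO.

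The differences along the run were modest, with log2 fold changes from 0.32 (SE 0.13) for *Zfp52* to 0.71 (SE 0.22) for *Zfp54* and a median of 0.41. By limma 4 of the 6 were called, and the Benjamini-Hochberg adjusted p over all genes was 0.203 for *Zfp54*, 0.211 for *Zfp53*, 0.235 for *Zfp948* and 0.283 for *Zfp52*. All 6 values stayed above 0 under each of the 14 alternatives, whereas the number called was 5 without control 1, 1 without control 2, 2 without KO 1 and 0 without KO 2. Both KO libraries lay above both control libraries in each of the 6, so leaving out 1 library could not turn a sign. No other gene in the interval had a mean FPKM of 1 or more. *Zfp983*, the next gene beyond the run, lay below the level threshold, with 3.60 and 2.65 in control and 4.72 and 5.84 in KO, and was called higher. Farther along, *Zfp995*, *Zfp942*, *Zfp758* and *Zfp945* had log2 fold changes of 0.19, 0.02, 0.04 and -0.03, and limma called 0 of these 4 at an unadjusted p below 0.05. The difference between the run and these later genes was not tested. The transcripts of *Zfp51* and *Zfp53* align at 85.7% identity over 64.2% of *Zfp53*, and those of *Zfp54* and *Zfp948* at 86.3% over 20.6% of *Zfp54*, which leaves room for some reads to be shared.

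**Figure D4:**
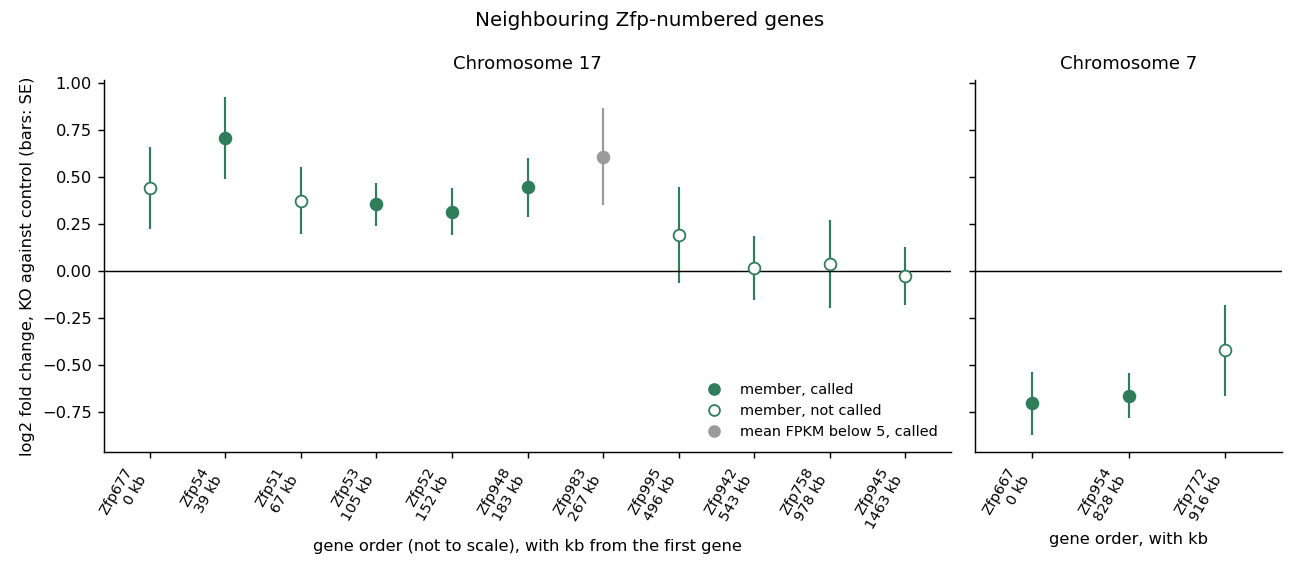
Log2 fold change with its SE (y axis, KO against control) of neighbouring tested zinc-finger genes on chromosome 17 (left) and chromosome 7 (right), in gene order with the distance in kb from the start of the first gene. Green marks genes of the 115, grey the gene *Zfp983* below the level threshold, and filled circles called genes. The 6 genes of the run on chromosome 17 sit between 0.32 and 0.71, and the 3 on chromosome 7 between -0.70 and -0.42.

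The promoters of the run are shown because its members are higher together and are related in sequence. Each is the RefSeq sequence on GRCm38.p6 from 250 bases before to 50 bases after the start of the gene, 5′ to 3′, and for *Zfp51* none was in the table used. Capitals mark matches, on either strand, to the SP box GGGCGG, the CCAAT box CCAAT, the ETS core CCGGAA, the TATA box TATAAA, the YY1 core AAGATGG, and the stretch AGCCTGAGAC, the longest one that the promoters of the 4 called genes have in common.
Zfp677, chr17:21383498-21383797, plus strand: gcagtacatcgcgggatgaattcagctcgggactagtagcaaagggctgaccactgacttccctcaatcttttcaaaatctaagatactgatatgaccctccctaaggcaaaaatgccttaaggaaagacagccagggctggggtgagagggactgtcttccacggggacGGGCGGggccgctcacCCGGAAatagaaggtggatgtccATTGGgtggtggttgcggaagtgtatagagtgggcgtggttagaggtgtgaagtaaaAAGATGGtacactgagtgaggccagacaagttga
Zfp54, chr17:21422977-21423276, plus strand: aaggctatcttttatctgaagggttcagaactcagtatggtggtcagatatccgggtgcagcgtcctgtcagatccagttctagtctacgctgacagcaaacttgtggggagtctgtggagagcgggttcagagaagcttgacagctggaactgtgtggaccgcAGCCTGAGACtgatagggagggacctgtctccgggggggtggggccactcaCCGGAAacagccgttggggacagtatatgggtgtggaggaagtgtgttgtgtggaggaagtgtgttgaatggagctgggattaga
Zfp53, chr17:21488738-21489037, plus strand: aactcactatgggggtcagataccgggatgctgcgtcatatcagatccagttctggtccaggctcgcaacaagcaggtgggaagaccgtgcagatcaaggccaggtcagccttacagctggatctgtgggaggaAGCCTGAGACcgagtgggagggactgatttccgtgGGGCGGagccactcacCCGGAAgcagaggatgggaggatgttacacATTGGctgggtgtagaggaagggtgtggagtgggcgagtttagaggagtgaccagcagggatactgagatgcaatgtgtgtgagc
Zfp52, chr17:21535289-21535588, plus strand: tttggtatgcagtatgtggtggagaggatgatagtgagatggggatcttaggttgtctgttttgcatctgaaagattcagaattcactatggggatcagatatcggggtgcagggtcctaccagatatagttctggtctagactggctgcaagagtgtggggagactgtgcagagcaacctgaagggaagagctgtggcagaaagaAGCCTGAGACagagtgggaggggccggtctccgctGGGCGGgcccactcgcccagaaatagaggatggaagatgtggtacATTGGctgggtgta
Zfp948, chr17:21566728-21567027, plus strand: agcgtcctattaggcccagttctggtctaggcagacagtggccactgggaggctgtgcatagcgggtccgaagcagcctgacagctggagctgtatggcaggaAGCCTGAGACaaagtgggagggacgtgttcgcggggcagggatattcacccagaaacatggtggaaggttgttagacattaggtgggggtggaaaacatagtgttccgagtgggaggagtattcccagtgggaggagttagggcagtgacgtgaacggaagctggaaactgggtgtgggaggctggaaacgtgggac

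The stretch AGCCTGAGAC lies on the same strand in *Zfp54*, *Zfp53*, *Zfp52* and *Zfp948* and is absent from the window of *Zfp677*. Since it was sought in these 4 promoters, its presence there is no finding. It occurred in 4 of the 96 members with a promoter in the table, and in 51 of 32851 promoter entries of all genes (0.155%). The resemblance between the promoters varied by pair. In the best ungapped match of 60 bases, *Zfp54* shared 50 bases with *Zfp53*, 50 with *Zfp52* and 47 with *Zfp948*. *Zfp53* shared 49 with *Zfp52* and 41 with *Zfp948*, and *Zfp52* shared 37 with *Zfp948*. *Zfp677* shared 35 with *Zfp54* and 43 with *Zfp53*. With the promoter of *Zfp667* on chromosome 7, the promoters of the run shared between 29 and 35. An ETS core occurred in *Zfp677*, *Zfp54* and *Zfp53*, and an SP box in *Zfp677*, *Zfp53* and *Zfp52*.

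Over the 96 members with a promoter, the SP box occurred in 56.2% against 35.7% of all promoter entries, the CCAAT box in 50% against 37.4%, the ETS core in 41.7% against 14.9% and the YY1 core in 11.5% against 6.34%. The TATA box was the exception, in 4.17% of members against 13.6% of all entries. Among the called genes the SP box was found in 4 of 9 called higher and 5 of 8 called lower, and the ETS core in 3 of 9 and 1 of 8. These are counts of letters in a window, given without a test. The entries of all genes were not filtered by level, whereas the members were, so the sets compared are unlike. The contrasts can therefore not be read as a trait of zinc-finger genes.

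On chromosome 7, the members that were lower included a trio within about a megabase, *Zfp667*, *Zfp954* and *Zfp772*, also chosen after its values were seen. *Zfp667* lies at 6286579 to 6307883 on the plus strand, *Zfp954* at 7114690 to 7121488 and *Zfp772* at 7202117 to 7209998, both on the minus strand of GRCm38. *Zfp772*, a KRAB gene with 8 fingers like *Zfp954*, had an FPKM of 9.05 and 6.22 in control and 4.87 and 5.90 in KO, and was not called (log2 fold change -0.42, SE 0.24). All 3 values lay below 0 under each of the 14 alternatives, and *Zfp954* and *Zfp667* were called under each. In each of the 3 both KO libraries lay below both control libraries, so leaving out 1 library could not turn a sign. The nearest tested gene past *Zfp772* is *Clcn4*, which is no member. It had an FPKM of 39.12 and 36.68 in control and 14.90 and 18.79 in KO, with a log2 fold change of -1.13. This gene was called lower, at an adjusted p of 0.040 by limma and the Benjamini-Hochberg method. The promoters of the trio are shown to compare them with each other, with capitals as above.
Zfp667, chr7:6286330-6286629, plus strand: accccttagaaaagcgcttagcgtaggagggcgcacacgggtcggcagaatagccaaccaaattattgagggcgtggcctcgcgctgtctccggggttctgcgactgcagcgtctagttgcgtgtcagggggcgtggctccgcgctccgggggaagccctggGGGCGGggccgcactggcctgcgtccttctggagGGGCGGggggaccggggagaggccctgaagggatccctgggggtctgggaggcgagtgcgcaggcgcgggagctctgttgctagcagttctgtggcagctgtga
Zfp954, chr7:7121427-7121726, minus strand: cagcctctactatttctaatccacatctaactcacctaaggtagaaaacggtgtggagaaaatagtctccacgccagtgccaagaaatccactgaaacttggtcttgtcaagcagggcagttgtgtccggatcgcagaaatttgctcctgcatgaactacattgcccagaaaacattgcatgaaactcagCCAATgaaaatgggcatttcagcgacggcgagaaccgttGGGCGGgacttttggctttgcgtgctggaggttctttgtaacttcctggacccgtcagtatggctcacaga
Zfp772, chr7:7209949-7210248, minus strand: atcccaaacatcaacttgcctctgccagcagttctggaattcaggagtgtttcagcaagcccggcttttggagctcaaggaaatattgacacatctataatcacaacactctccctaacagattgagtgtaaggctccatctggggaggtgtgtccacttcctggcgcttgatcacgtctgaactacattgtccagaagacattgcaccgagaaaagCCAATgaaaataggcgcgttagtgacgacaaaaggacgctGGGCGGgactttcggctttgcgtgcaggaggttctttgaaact

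The windows of *Zfp954* and *Zfp772* shared 46 of 60 bases in their best ungapped match, against 27 of 60 between *Zfp667* and either of them. Both held 1 CCAAT box followed by 1 SP box. The window of *Zfp667* differed, with 2 SP boxes, a GC content of 67.7% and 25 CpG dinucleotides, compared with 11 CpG dinucleotides in each of the other two.

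Other groups of neighbours were less uniform. On chromosome 8, *Zfp868* and *Zfp869*, 95.5 kb apart, were both lower in each KO library. *Zfp868* had an FPKM of 58.89 and 48.75 in control and 47.44 and 41.27 in KO, and was not called (log2 fold change -0.27, SE 0.15). The 2 genes had nearly the same FPKM in control libraries although no alignment of at least 85% identity was found between their transcripts. On chromosome 13, *Zfp429* was called higher, but *Zfp58*, *Zfp87* and *Zfp748* beside it had log2 fold changes of 0.14, 0.05 and -0.06. On chromosome 9, *Zfp26* was called lower and its neighbours *Zfp560*, *Zfp266* and *Zfp846* had values of -0.22, -0.03 and -0.08. In all, 43 of the tested members lay in 15 such groups of 2 or more.

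Members with a known function outside KRAB silencing, or a known target, were followed through lists of genes by role. Of 19 such members limma called 0 higher and 2 lower (10.5%), *Zfp281* and *Zfp592*, at an unadjusted p below 0.05, beside 8.61% and 7.57% of all genes tested. For the control of retroviruses and imprints, *Zfp809*, which silences murine leukemia proviruses, had an FPKM of 27.88 and 27.33 in control and 26.47 and 31.30 in KO. *Zfp445*, which guards imprints, had 16.86 and 20.89 in control and 18.57 and 19.80 in KO. The groups overlapped in both, and neither was called. For lymphocyte biology, *Zfp91*, an E3 ligase, and *Zfp35* had log2 fold changes of 0.07 (SE 0.16) and -0.06 (SE 0.21).

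The general transcription factors other than *Zfp281* were not called. *Zfp143*, which binds many promoters of housekeeping genes, and *Zfp148* had log2 fold changes of 0.21 and 0.14, and *Zfp263* of -0.02. *Zfp384* and *Zfp131* had -0.32 and -0.28, with both KO libraries below both control libraries. Of the factors for the large ribosomal subunit, *Zfp622* had -0.13 (SE 0.13) and *Zfp593* had -0.34 (SE 0.21). Among RNA-binding and splicing proteins, *Zfp638* had an FPKM of 29.67 and 24.70 in control and 32.65 and 35.66 in KO, and *Zfp830* had 26.85 and 27.15 in control and 22.55 and 20.34 in KO. These stood on opposite sides, at log2 fold changes of 0.32 and -0.32, and missed the threshold with an unadjusted p by limma of 0.064 and 0.054. *Zfp326*, *Zfp106* and *Zfp346* had -0.33, -0.07 and 0.23.

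The partners through which KRAB proteins act were measured in the same libraries. Of 20 corepressor and H3K9 methylation genes in the table, 17 were tested. Limma called 0 of the 17 in either direction at an unadjusted p below 0.05, beside 16.2% of all genes tested. The median log2 fold change of the 17 was 0.07. *Trim28*, the corepressor that binds the KRAB box, had an FPKM of 64.05 and 58.00 in control and 59.61 and 60.19 in KO. *Setdb1* had 4.57 and 5.56 in control and 5.75 and 4.42 in KO. Both overlapped between genotypes, with log2 fold changes of -0.025 (SE 0.12) and 0.00090 (SE 0.24). The heterochromatin protein gene *Cbx3* was the highest of the list, with 444.26 and 305.59 in control and 441.83 and 449.20 in KO. The largest estimates in the list were 0.27 for *Cbx3* and 0.16 for the H3K9 methyltransferase gene *Ehmt2*, and neither was called. The value of *Cbx3* rested on the control libraries, at 0.54 and called without control 1 and at 0.0040 without control 2.

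Close copies and overlapping genes limited a few further members. For 7 of the 115 another transcript matched at 90% identity or more over at least 50% of the length, namely *Zfp429*, *Zfp932*, *Zfp97*, *Zfp141*, *Zfp995*, *Zfp58* and *Zfp747*. Of these 7, 2 were called higher (28.6%) and 0 lower, beside 8.61% and 7.57% of all genes tested. For 10 members a gene with a mean FPKM above 3 overlaps them, and 0 of these 10 were called by limma at an unadjusted p below 0.05, so that none of the 17 called genes overlaps a gene of that level.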

How the data were processed

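RNA-seq of LI Treg cells was used, in 2 control and 2 KO libraries. Paired 150 bp reads had been aligned by the authors to GRCm38 (STAR 2.5) and summed per gene (RSEM 1.2), and the deposited values are FPKM for 53379 genes, on a nearly common distribution in the 4 libraries, a step that the methods do not name. Counts and depth are unknown, so the precision is the spread between pools. Gene positions, types and proteins were taken from a later GENCODE annotation of GRCm38, in which 53274 identifiers were found. A finger was counted as C, 2 to 4 residues, C, 12 residues, H, 3 to 5 residues, H. KRAB and SCAN boxes were found by simplified patterns, which can miss divergent ones.

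Values on the log2(FPKM + 1) scale, which understates changes of low genes, were fitted with limma 3.58.1 (R 4.3.3) over protein-coding genes whose mean FPKM exceeded 5 in at least 1 group, with an empirical Bayes trend, no covariate and Benjamini-Hochberg adjustment. The fit was tested on simulated data of 7639 genes, where 100% of 200 genes changed by 1 on the log2 scale were called and 4.77% of the others. That change is larger than any among the tested members, which lay between -0.90 and 0.90. The simulated spread was averaged over genes of similar level. How many changes of the size reported here would be called was not tested. Transcripts were aligned with BLAST 2.17.0. Tables were made in Python 3.11.15 with pandas 2.3.3.

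The genes named are the 8 called ones of smallest p in either direction, the 6 highest, 2 on each side of the level threshold, the members of the role lists, the KRAB corepressor list and *Setd2*. *Zfp52*, *Zfp51*, *Zfp677*, *Zfp772*, *Zfp868*, *Zfp950*, *Zfp983*, *Clcn4* and the other neighbours were added once their values had been seen. Members and lists were chosen with earlier results of these data known. Neither labels nor methods say that replicate numbers pair the pools. Alternatives were other pseudocounts (0.1 and 5), filters (a mean of at least 1 or none), gene types, centring, quantile normalization, no trend, a replicate block and each library left out.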

Additional observations from a re-analysis of the deposited data

How the results depend on the processing

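The counts of called genes were the same or within 1.5 times under the pseudocounts of 0.1 and 5, a mean FPKM of at least 1, all gene types, median-centring, quantile normalization and no trend, and of the 61 single genes followed none turned direction under these. Without a filter on low values 5 genes were called higher, beside 5.48% of all genes tested in that fit. With the replicate number as a block 4 were called higher and 4 lower, beside 5.49% and 4.94% of all genes tested. Same-numbered libraries deviated in opposite directions (r of deviations -0.30). Neither labels nor methods give the numbers as a pairing. With the crossed pairing, added after seeing the data, 15 were called higher and 12 lower, and 6 passed an adjusted p of 0.05. In that fit 13.2% of all genes tested were called higher and 12.9% lower, so calls rose over all genes as well. The share of all genes that passed the adjusted p in that fit is not given here. With 1 library left out, and the lone library assumed to vary like the rest, the genes called higher ranged from 2 to 8, those called lower from 3 to 9, those at an adjusted p below 0.05 from 0 to 1 and the median log2 fold change from -0.01 to 0.02. Of these genes, 24 changed sign in at least 1 of these fits, none of them called with all 4 libraries, with log2 fold changes of *Zfp706* from -0.099 to 0.077, *Zfp655* from -0.071 to 0.065, *Zfp263* from -0.20 to 0.17, *Zfp346* from -0.13 to 0.60, *Zfp362* from -0.083 to 0.31, *Zfp809* from -0.058 to 0.18, *Zfp445* from -0.12 to 0.18, *Zfp91* from -0.025 to 0.17, *Zfp35* from -0.20 to 0.075, *Zfp106* from -0.37 to 0.22, *Trim28* from -0.095 to 0.046, *Setdb1* from -0.16 to 0.16, *Atf7ip* from -0.050 to 0.25, *Cbx1* from -0.042 to 0.21, *Suv39h1* from -0.063 to 0.22, *Ehmt1* from -0.047 to 0.19, *Mphosph8* from -0.047 to 0.19, *Pphln1* from -0.062 to 0.16, *Smarcad1* from -0.20 to 0.12, *Daxx* from -0.31 to 0.10, *Dnmt1* from -0.13 to 0.21, *Uhrf1* from -0.32 to 0.27, *Setd2* from -0.30 to 0.17 and *Zfp950* from -2.01 to 0.50. The cause was not tested. Genes called with all 4 libraries could not change sign with 1 library left out. In each such gene, both KO libraries lay on the same side of both control libraries. Depth is unknown, and 2 libraries per group limit the precision.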
